A study of Homo sapiens with 8 samples.

Results

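CLCA2, MIR205HG, TPRG1, BLNK, BFSP1, SCRG1, GPM6A, FABP6, CLEC2B and CPVL are 10 genes that stood strongly higher in the transformed breast epithelial clone trMCF clone 11 than in its parental line MCF-10F. They were picked for that difference from array values of these same samples, and the question asked of them was which fell, and how far, when the clone was grown with all-trans retinoic acid (ATRA). A gene was followed through the probe sets that name it alone in the array annotation, which gave 19 probe sets for the 10 genes among 54613 probe sets and 19775 genes in all. The value of a gene is that of its brightest probe set, and the other probe sets served as a check.

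The data are 8 Affymetrix U133 Plus 2.0 arrays in 4 groups of 2, namely untreated trMCF clone 11, trMCF clone 11 after 26 days in 1 μM ATRA, trMCF clone 11 after 26 days in 10 μM ATRA, and MCF-10F. MCF-10F is an immortalized, normal-like human breast epithelial line, and trMCF clone 11 was expanded from a single ring-cloned colony of MCF-10F cells that had been exposed to estradiol, so that all transformed cells here descend from 1 clone. The labels state that DMSO was the vehicle of the control cells but not whether the untreated clone arrays hold such cells, and they leave unstated whether replicate arrays stand for separate cultures. The p-values therefore measure only the spread between these arrays, which may be technical. The label of trMCF clone 11 replicate 1 carries a disease state of normal against its own title, and the array was grouped by the title.

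ATRA, the active form of vitamin A, binds nuclear receptors that sit on DNA as dimers and switch the transcription of their target genes. Several of the 10 genes belong to programmes of other tissues. CLCA2, an accessory protein of calcium-activated chloride channels with a protease-like domain, and MIR205HG, the host transcript of the microRNA miR-205, are known from the basal layer of stratified and mammary epithelium. BLNK is the adaptor that links the B-cell receptor kinase SYK to its effectors, and CLEC2B is a C-type lectin that binds a receptor of natural killer cells. BFSP1 (filensin) forms the beaded filaments of the lens, SCRG1 was described in chondrogenesis, and GPM6A is a membrane glycoprotein of neurons. FABP6 carries bile acids in the ileum, and CPVL is a serine carboxypeptidase found in macrophages.

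Sequences of MIR205HG, CLCA2 and BLNK are shown, the microRNA because its host transcript is a member and the promoters because CLCA2 and BLNK followed each other most closely over the arrays. They are RefSeq sequences of GRCh38.p14, and promoter windows run from 250 bases before to 50 bases after an annotated start. The mature microRNA lies at chr1:209432166-209432187 on the + strand and its capitals mark the seed (bases 2 to 8). The promoter windows lie at chr1:86423921-86424220 (+ strand, CLCA2), chr1:209428570-209428869 (+ strand, MIR205HG) and chr10:96271520-96271819 (- strand, BLNK). Their capitals mark motif matches, which in CLCA2 are a TATAAA, a match to TGANTCA (either strand) and an AGTTCA, in MIR205HG an AGTTCA, and p53-family half-sites in BLNK.
hsa-miR-205-5p: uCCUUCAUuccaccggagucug
CLCA2 promoter: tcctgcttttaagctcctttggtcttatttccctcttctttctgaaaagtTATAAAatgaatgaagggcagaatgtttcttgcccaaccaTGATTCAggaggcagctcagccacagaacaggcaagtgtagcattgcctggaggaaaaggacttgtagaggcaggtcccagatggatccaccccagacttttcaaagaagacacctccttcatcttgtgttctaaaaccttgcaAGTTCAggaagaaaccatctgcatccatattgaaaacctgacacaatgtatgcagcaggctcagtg
MIR205HG promoter: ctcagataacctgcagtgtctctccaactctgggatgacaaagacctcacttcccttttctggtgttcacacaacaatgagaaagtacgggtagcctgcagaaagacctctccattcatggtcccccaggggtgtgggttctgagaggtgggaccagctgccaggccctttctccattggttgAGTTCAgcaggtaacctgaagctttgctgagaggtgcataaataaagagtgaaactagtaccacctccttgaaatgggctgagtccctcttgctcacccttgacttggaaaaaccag
BLNK promoter: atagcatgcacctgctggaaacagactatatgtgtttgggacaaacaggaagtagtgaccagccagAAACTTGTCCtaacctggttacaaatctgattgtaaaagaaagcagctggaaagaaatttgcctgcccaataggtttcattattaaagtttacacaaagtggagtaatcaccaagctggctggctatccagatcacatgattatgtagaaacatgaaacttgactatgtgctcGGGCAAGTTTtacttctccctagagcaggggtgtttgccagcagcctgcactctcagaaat

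Of the 10 genes, 8 (all but TPRG1 and CLEC2B) matched 14 promoter windows. A retinoid receptor half-site (AGGTCA, the variant GGGTCA, the variant AGTTCA or the variant GGTTCA, either strand) was found in 7 of the 14 windows, those of 6 genes, and in 38.6% of all 35116 windows of the same length. AGGTCA itself was found in 0 of the 14 windows and in 13.83% of all windows. A TGANTCA match was found in 5 of the 14 windows, those of 3 genes, and in 7.71% of all windows. A TATAAA match was found in 4 of the 14 windows and in 11.53% of all windows. A p53-family half-site (either strand, the same letters being read on both strands) was found in 3 of the 14 windows, those of BLNK and GPM6A, and in 6.63% of all windows. A match is a description of the letters only.

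The 8 arrays had medians of 47.4 to 48.9, and 21.5 to 23.7% of their signals were under 16, a level near the dim end of each array. The 2 clone arrays lay farthest apart, with 7.71% of probe sets more than 2-fold different between them, compared with 0.126% for 1 μM ATRA, 0.211% for 10 μM ATRA and 3.48% for MCF-10F. The actin 3'/5' signal ratio, a measure of RNA integrity, was 5.57 to 6.40 on the replicate 1 arrays and 7.76 to 8.64 on the replicate 2 arrays. It was lower in the clone (5.69 and 7.91) than in the same-numbered arrays at 10 μM (6.28 and 8.35) and 1 μM ATRA (6.40 and 8.64). The GAPDH 3'/5' ratio was 1.57 and 1.29 in the clone, 1.69 to 1.79 on the ATRA arrays, and 1.70 and 1.38 in MCF-10F. The part of RNA integrity in the differences between clone and ATRA was not tested. In these bulk samples, fewer cells that express a gene and less RNA per cell cannot be told apart.

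In the untreated clone, the 10 genes were 2.70 to 4.93 higher on the log2 scale than in MCF-10F (median 3.88), which is how they were chosen and is given without a test. CLCA2 had the largest such difference of all 19775 genes (30.6-fold). MIR205HG stood at rank 3, and 9 of the 21 highest ranks were members. BLNK was the lowest member, at rank 44 with 2.70, next to the non-members DEPTOR (2.72, rank 43) and TNNT1 (2.69, rank 45). All 10 genes had both clone arrays above both MCF-10F arrays. The MCF-10F arrays themselves were unequal for some genes: replicate 2 was 3.45 times replicate 1 for CLCA2 and 3.20 times for CLEC2B.

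**Figure D1:**
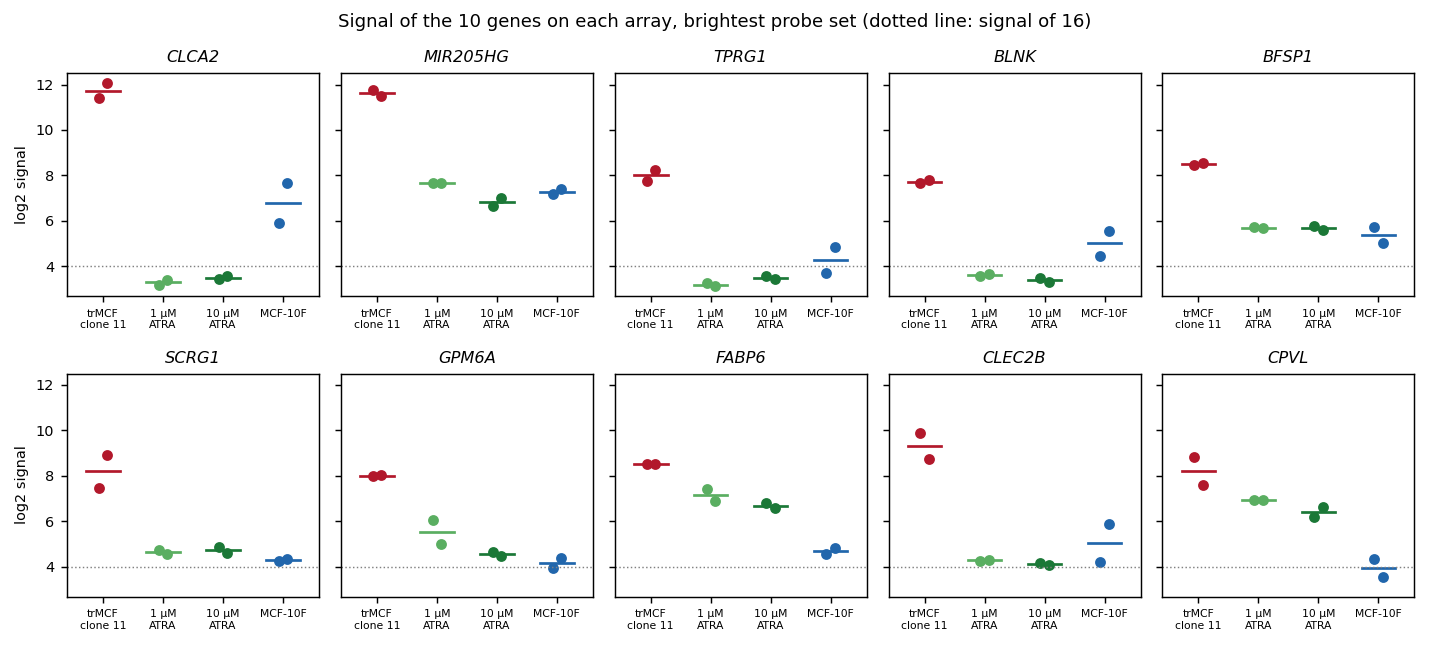
Signal of each gene at its brightest probe set (log2, vertical axis) on each array, by group, with the mean of the 2 arrays as a line and a signal of 16 as a dotted line. All 10 genes are highest in untreated trMCF clone 11 and lower on every ATRA array, and FABP6 and CPVL stay furthest above MCF-10F at both doses.

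The 10 genes were lower with ATRA, and for several of them little of the clone's high level was left. Against the untreated clone, 8 of 10 genes fell at 1 μM ATRA and all 10 fell at 10 μM (limma, adjusted p under 0.05 over all probe sets). Among all genes, 0.925% were called lower at 1 μM and 3.93% at 10 μM. The 1 μM fit held 6 arrays and the 10 μM fit all 8. Counts and shares called at 1 μM and at 10 μM are therefore not a like comparison, here and below. With all 8 arrays, 644 genes were called lower at 1 μM, against 183 in the main fit. With only the 4 arrays compared, 217 were called lower at 10 μM, against 777 in the main fit. Every member had both ATRA arrays below both clone arrays at each dose, where 30.4% and 24.1% of all genes were lower in this way. The median difference of the members was -3.76 at 1 μM and -3.90 at 10 μM, against -0.07 and -0.01 over all genes. The comparison uses the same clone arrays on which the genes were picked as high, so its direction is not independent of that choice. By current symbol, 7 of the 10 genes (all but MIR205HG, CLEC2B and CPVL) are in the study's own list of reversed genes from these samples. MIR205HG is in that list too, under an older locus name. The choice of these genes also follows that list, and their direction is not independent evidence.

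CLCA2 changed most. CLCA2 signals were 2688 and 4250.3 in the untreated clone, 9.07 and 10.6 at 1 μM ATRA, 10.9 and 11.7 at 10 μM ATRA, and 59.5 and 205 in MCF-10F. The ATRA arrays therefore sat in the dimmest range of the array, below even the lower MCF-10F array. CLCA2 fell at both doses, with log2 differences from the clone of -8.43 at 1 μM (SE 0.57, adjusted p = 0.0160) and -8.23 at 10 μM (SE 0.52, adjusted p = 0.0016). With all signals under 16 set to 16 the 1 μM difference was -7.72 and did not pass (adjusted p = 0.0973). The 3 other CLCA2 probe sets also fell at both doses, with log2 differences of -8.05 to -5.84 at 1 μM and -8.18 to -6.27 at 10 μM.

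MIR205HG was the member measured with the smallest error. MIR205HG signals were 3496 and 2848 in the untreated clone, 204 and 203 at 1 μM ATRA, 99.4 and 127 at 10 μM ATRA, and 143 and 167 in MCF-10F. The 1 μM arrays lay just above MCF-10F and the 10 μM arrays just below it. MIR205HG fell at both doses, with log2 differences from the clone of -3.95 at 1 μM (SE 0.17, adjusted p = 0.0123) and -4.81 at 10 μM (SE 0.18, adjusted p = 0.0006).

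TPRG1 and BLNK went the way of CLCA2. TPRG1 signals were 217 and 302 in the untreated clone, 9.53 and 8.72 at 1 μM ATRA, 11.8 and 10.8 at 10 μM ATRA, and 13.1 and 28.8 in MCF-10F. BLNK signals were 200.0 and 219 in the untreated clone, 12.0 and 12.6 at 1 μM ATRA, 11.2 and 9.75 at 10 μM ATRA, and 22.1 and 47.2 in MCF-10F. Both genes were under 16 on every ATRA array and lay below both MCF-10F arrays. TPRG1 fell at both doses, with log2 differences from the clone of -4.81 at 1 μM (SE 0.39, adjusted p = 0.0170) and -4.50 at 10 μM (SE 0.35, adjusted p = 0.0026). BLNK fell at both doses, with log2 differences from the clone of -4.09 at 1 μM (SE 0.35, adjusted p = 0.0180) and -4.32 at 10 μM (SE 0.32, adjusted p = 0.0024). Each is measured by 1 probe set.

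CLEC2B also dropped to dim values, from a clone level that was itself uneven. CLEC2B signals were 929.7 and 430.3 in the untreated clone, 19.2 and 19.5 at 1 μM ATRA, 18.1 and 16.6 at 10 μM ATRA, and 18.4 and 58.9 in MCF-10F. The ATRA arrays were close to the lower MCF-10F array. CLEC2B fell at both doses, with log2 differences from the clone of -5.03 at 1 μM (SE 0.60, adjusted p = 0.0307) and -5.19 at 10 μM (SE 0.55, adjusted p = 0.0060). Without trMCF clone 11 replicate 1 the 1 μM difference was -4.48 and no longer passed (adjusted p = 0.0577). Its second, dim probe set read 18.1 and 18.7 in the clone and 7.34 to 8.71 on the other 6 arrays, and fell at both doses.

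BFSP1 and SCRG1 came close to the level of MCF-10F at both doses. BFSP1 signals were 353 and 368 in the untreated clone, 52.98 and 51.0 at 1 μM ATRA, 54.6 and 49.0 at 10 μM ATRA, and 52.3 and 32.3 in MCF-10F. The 4 ATRA arrays lay close together, near the higher MCF-10F array. BFSP1 fell at both doses, with log2 differences from the clone of -2.79 at 1 μM (SE 0.24, adjusted p = 0.0180) and -2.80 at 10 μM (SE 0.22, adjusted p = 0.0027). SCRG1 signals were 178 and 485 in the untreated clone, 26.3 and 23.2 at 1 μM ATRA, 28.9 and 24.1 at 10 μM ATRA, and 18.7 and 20.2 in MCF-10F. SCRG1 fell at both doses, with log2 differences from the clone of -3.57 at 1 μM (SE 0.45, adjusted p = 0.0336) and -3.48 at 10 μM (SE 0.41, adjusted p = 0.0082). The call at 1 μM was lost without either MCF-10F array (adjusted p = 0.0532), and the dim second probe set of SCRG1, between 7.08 and 9.23 on all arrays, did not pass.

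GPM6A came close to MCF-10F at 10 μM and lay above it on both arrays at 1 μM. GPM6A signals were 253 and 261 in the untreated clone, 66.4 and 32.1 at 1 μM ATRA, 24.6 and 22.3 at 10 μM ATRA, and 15.5 and 20.9 in MCF-10F. The 1 μM replicate 1 array stood well above replicate 2, which lay nearer to the 10 μM arrays. GPM6A fell at both doses, with log2 differences from the clone of -2.48 at 1 μM (SE 0.36, adjusted p = 0.0444) and -3.46 at 10 μM (SE 0.33, adjusted p = 0.0043). The call at 1 μM was lost without trMCF clone 11 replicate 1 (adjusted p = 0.0786) and without either MCF-10F array (adjusted p = 0.0582). A second probe set fell too, with differences of -2.34 and -3.30, while the third read 25.9 to 46.0 on all arrays and did not pass at either dose.

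FABP6 and CPVL were lowered least. FABP6 signals were 364 and 368 in the untreated clone, 169 and 117.5 at 1 μM ATRA, 110.5 and 95.3 at 10 μM ATRA, and 23.2 and 28.2 in MCF-10F. FABP6 had log2 differences from the clone of -1.38 at 1 μM (SE 0.22, adjusted p = 0.0507) and -1.83 at 10 μM (SE 0.21, adjusted p = 0.0073), so that FABP6 was just outside the threshold at 1 μM and fell at 10 μM. CPVL signals were 453.5 and 195 in the untreated clone, 123 and 121 at 1 μM ATRA, 73.3 and 99.0 at 10 μM ATRA, and 19.9 and 11.8 in MCF-10F. The 2 clone arrays of CPVL stood further apart than its lower clone array stood from the 1 μM arrays. CPVL had log2 differences from the clone of -1.29 at 1 μM (SE 0.44, adjusted p = 0.1981) and -1.80 at 10 μM (SE 0.41, adjusted p = 0.0496), so that CPVL fell at 10 μM only. That call sits at the threshold and was lost without trMCF clone 11 replicate 1 (-1.20, adjusted p = 0.0863), without either 1 μM array (adjusted p = 0.113) and without 10 μM replicate 1 or 2 (adjusted p = 0.292 and 0.189). It was also lost with the 4 arrays alone (0.131), quantile normalization (0.0562) and signals under 16 set to 16 (0.140). Without replicate 2 of the clone, CPVL passed at 1 μM (-1.90, adjusted p = 0.0251), as did FABP6 (-1.37, adjusted p = 0.0358). The other FABP6 probe sets read 9.504 to 19.7 on all arrays and did not pass.

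**Figure D2:**
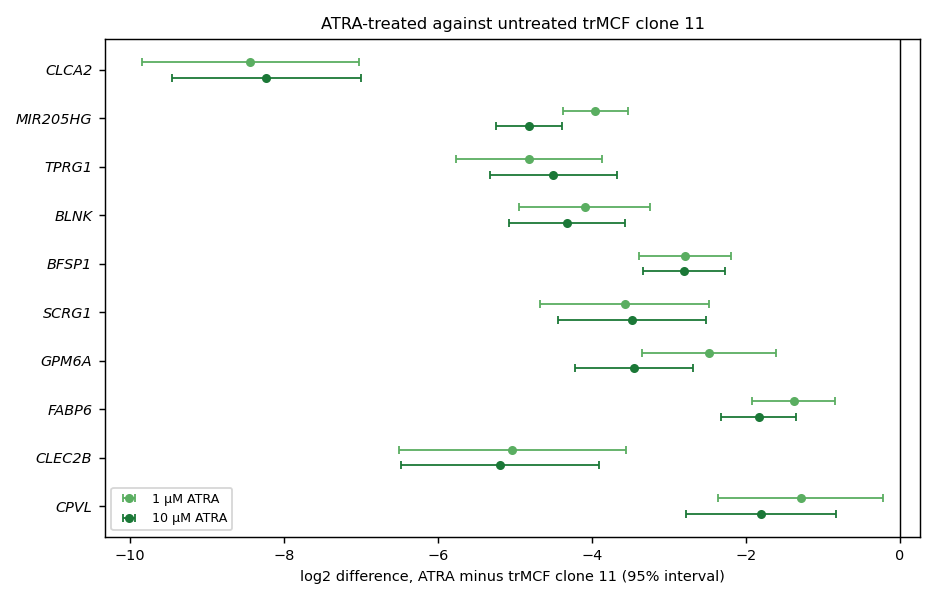
Log2 difference of each gene between ATRA-treated and untreated trMCF clone 11 at 1 μM and 10 μM (points, with 95% intervals from limma that are not adjusted for the number of genes). CLCA2 lies furthest from 0 at -8.43 and -8.23, and FABP6 and CPVL lie nearest, between -1.29 and -1.83.

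The calls at 1 μM rest on both arrays of that dose. With signals under 16 set to 16, MIR205HG alone of the 10 genes passed at 1 μM. BFSP1, which has no signal that low, kept its difference of -2.79 and lost its call as well (adjusted p = 0.0985), and the cause was not tested. With either 1 μM array left out, none of the 10 genes passed in limma (adjusted p 0.23 to 0.421 for the members called with both arrays and FABP6, and up to 0.668 for CPVL), and no gene of the whole array did. With either 10 μM array left out, 5 of the 10 genes still passed at 10 μM, and CLEC2B, CPVL, FABP6, GPM6A and SCRG1 did not (adjusted p 0.0602 to 0.292). The differences themselves stayed between -8.54 and -1.12 at 1 μM and between -8.28 and -1.59 at 10 μM in these fits. At 10 μM the call of SCRG1 was lost also with the 4 arrays alone (adjusted p = 0.0520) and with signals under 16 set to 16 (0.0591), that of CLEC2B with signals under 16 set to 16 (0.0506), and that of FABP6 with its probe sets averaged (difference -0.55, adjusted p = 0.0626). CLCA2, MIR205HG, TPRG1, BLNK and BFSP1 passed at 10 μM in all 16 alternatives run.

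How far ATRA took each gene can be read against MCF-10F, as the share of the clone's log2 excess over MCF-10F that was gone. For CLCA2, BLNK and TPRG1 more than the whole excess was gone at both doses, and no share is given, since their signals were under 16 on every ATRA array. For CLEC2B the share was 118% at 1 μM and 122% at 10 μM. The CLEC2B arrays at 1 μM overlapped those of MCF-10F, and its difference from MCF-10F at that dose turned to 0.07 without MCF-10F replicate 2. At 1 μM and 10 μM the share was 90.9% and 111% for MIR205HG, 91.2% and 88.8% for SCRG1, 89.2% and 89.4% for BFSP1, and 64.6% and 90.1% for GPM6A. It was 35.9% and 47.7% for FABP6 and 30.1% and 42.1% for CPVL. The mean CPVL signal in MCF-10F was 15.8, itself under 16, so the CPVL shares rest on a dim reference level. These shares are descriptions, since the rule chose the genes for the excess that stands in the denominator.

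Tested directly against MCF-10F, 1 of 10 genes passed at 1 μM and 3 of 10 at 10 μM. These counts come from fits of 6 and 8 arrays, and with all 8 arrays 3 members passed at 1 μM too. The ATRA and MCF-10F arrays did not overlap for 8 of 10 genes at 1 μM and for 9 of 10 at 10 μM, where this held for 50.4% and 50.6% of all genes. At a fold of 2 with an unadjusted p under 0.05 there were 6 of 10 genes at 1 μM (BLNK, CLCA2, CPVL, FABP6, GPM6A and TPRG1), against 3.83% of all genes, and 4 of 10 at 10 μM (BLNK, CLCA2, CPVL and FABP6), against 4.63%. The gene that passed at 1 μM after adjustment was FABP6, which was higher by 2.46 (SE 0.22, adjusted p = 0.0200), where 0.627% of all genes passed in either direction. Its call was lost without MCF-10F replicate 1 (adjusted p = 0.0768) or replicate 2 (0.0543) and without either 1 μM array. At 10 μM, 3 of 10 genes passed, against 2.64% of all genes. FABP6 was higher by 2.01 (adjusted p = 0.0068) and CPVL higher by 2.48 (adjusted p = 0.0360), and CLCA2 was lower (difference -3.29, SE 0.52, adjusted p = 0.0307). The CPVL call was lost without MCF-10F replicate 2 (adjusted p = 0.109), all 3 calls were lost without either 10 μM array (adjusted p 0.0837 to 0.296), and those of CLCA2 and CPVL also without either 1 μM array (adjusted p = 0.0939 and 0.109). At 1 μM, CLCA2 had a difference of -3.50 (adjusted p = 0.0990) and CPVL one of 2.995 (adjusted p = 0.0738). BLNK had differences of -1.40 (adjusted p = 0.2280) and -1.63 (adjusted p = 0.0604) at the 2 doses.

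The remaining members had differences from MCF-10F between -1.09 and 1.36 that did not pass. For BFSP1 the 95% interval ran from -0.26 to 0.94 at 1 μM and from -0.20 to 0.86 at 10 μM. For SCRG1 it ran from -0.75 to 1.44 at 1 μM and from -0.53 to 1.41 at 10 μM. For GPM6A, with a difference of 1.36 at 1 μM and 0.38 at 10 μM, it ran from 0.48 to 2.23 and from -0.38 to 1.15, and its second probe set was 1.20 above MCF-10F at 1 μM. For TPRG1 it ran from -2.04 to -0.14 at 1 μM and from -1.60 to 0.05 at 10 μM. The 1 μM intervals of GPM6A and TPRG1 leave out 0, but neither difference passed after adjustment (adjusted p = 0.2495 and 0.402). For CLEC2B it ran from -2.25 to 0.70 at 1 μM and from -2.21 to 0.36 at 10 μM. For MIR205HG it ran from -0.03 to 0.82 at 1 μM and from -0.89 to -0.03 at 10 μM. The medians over the 10 genes were 0.34 and -0.07, against 0.00 and 0.05 over all genes. All of these comparisons use the MCF-10F arrays on which the genes were picked as low.

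**Figure D3:**
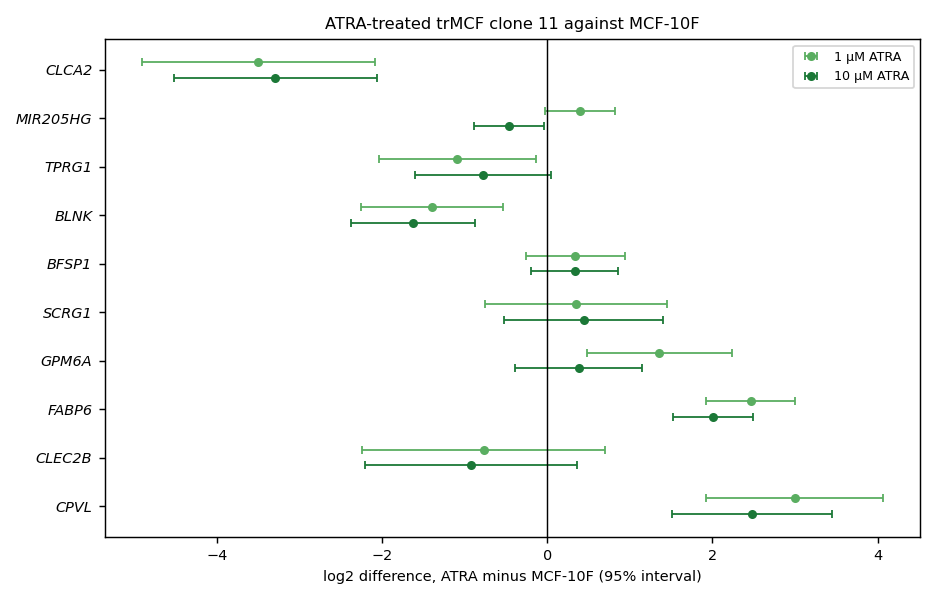
Log2 difference of each gene between ATRA-treated trMCF clone 11 and MCF-10F at 1 μM and 10 μM (points, with 95% intervals from limma). CLCA2 lies below 0 at both doses (-3.50 and -3.29), FABP6 and CPVL lie above it (2.01 to 2.995), and the others lie within 1.63 of it.

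The 2 doses were compared in a fit of their 4 arrays alone, which uses no clone or MCF-10F array. Most of the 10 genes are in the study's list of reversed genes, which was drawn with the 1 μM arrays. The comparison is therefore not wholly free of the choice of genes. In limma 0 of the 10 genes and 0 of the 19775 genes passed (0.0%). At an unadjusted p under 0.05 there were 5 of the 10 genes and 1326 genes in all (6.71%). MIR205HG was lower at 10 μM by 0.86 on the log2 scale (difference -0.86, 95% interval -1.20 to -0.51, adjusted p = 0.619), both 10 μM arrays lying below both 1 μM arrays. GPM6A had a difference of -0.98 (95% interval -1.73 to -0.23, adjusted p = 0.725) and its second probe set one of -0.96. CPVL had -0.52 (interval -0.90 to -0.13) and FABP6 -0.46 (interval -0.91 to -0.01). TPRG1 went the other way with 0.31 (interval 0.03 to 0.59), at signals under 16 on all 4 arrays. For BFSP1 the interval was -0.28 to 0.27, for CLEC2B -0.42 to 0.11, for BLNK -0.52 to 0.06, for SCRG1 -0.23 to 0.42 and for CLCA2 -0.09 to 0.50. The arrays of the doses did not overlap for 8 of the 10 genes, as for 38.8% of all genes.

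**Figure D4:**
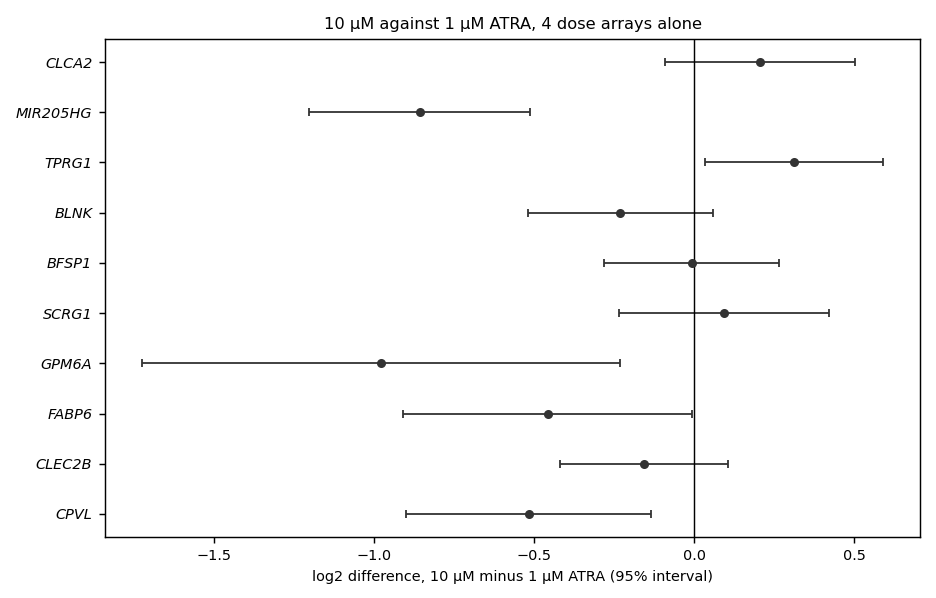
Log2 difference of each gene between 10 μM and 1 μM ATRA (points, with 95% intervals from limma on the 4 dose arrays, not adjusted for the number of genes). MIR205HG (-0.86) and GPM6A (-0.98) lie furthest from 0, and no gene passed after adjustment.

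A probe set annotated to MIR205 itself lies next to MIR205HG in gene order and followed it. MIR205 signals were 1362 and 2372 in the untreated clone, 281 and 235 at 1 μM ATRA, 142 and 148 at 10 μM ATRA, and 199.8 and 222 in MCF-10F. MIR205 had log2 differences from the clone of -2.81 at 1 μM (SE 0.28, adjusted p = 0.0234) and -3.63 at 10 μM (SE 0.26, adjusted p = 0.0023), both past the test, and its difference between doses was -0.83 (95% interval -1.13 to -0.52, adjusted p = 0.5234). The array measures labelled cDNA of longer transcripts, so this value is not a level of the mature microRNA shown above, and the MIR205 and MIR205HG probe sets read from 1 locus. ZEB1 and ZEB2, transcription factors known as targets of miR-205, were looked at after their values were seen. ZEB1 signals were 8.10 and 13.6 in the untreated clone, 17.1 and 16.8 at 1 μM ATRA, 16.4 and 18.7 at 10 μM ATRA, and 262 and 108 in MCF-10F. ZEB2 signals were 8.55 and 23.2 in the untreated clone, 23.1 and 25.3 at 1 μM ATRA, 13.7 and 15.0 at 10 μM ATRA, and 118 and 135 in MCF-10F. Both were lower in the clone than in MCF-10F (ZEB1 -4.01, adjusted p = 0.0192; ZEB2 -3.16, adjusted p = 0.0302, and 0.128 without MCF-10F replicate 1 or 0.0779 without replicate 2). Neither passed between ATRA and the clone (differences of 0.02 to 0.78, adjusted p 0.3921 to 0.9881). Of the 9 measured genes in a list of 10 miR-205 targets, 0 passed in limma against the clone at either dose.

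**Figure D5:**
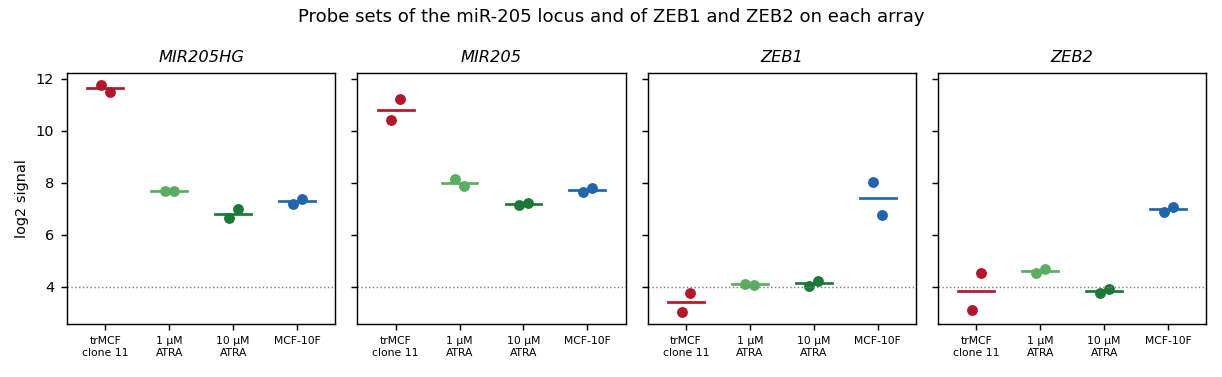
Signal (log2, vertical axis) of MIR205HG, MIR205, ZEB1 and ZEB2 on each array, by group, with the mean of the 2 arrays as a line and a signal of 16 as a dotted line. MIR205HG and MIR205 are highest in untreated trMCF clone 11, whereas ZEB1 and ZEB2 are high in MCF-10F only and reach at most 25.3 on the other 6 arrays.

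Most genes that flank the members did not pass. The nearest named gene with a probe set of its own was taken on each side of each member in RefSeq order, 20 genes in all. At 1 μM ATRA, MIR205 alone among them passed. At 10 μM, MIR205 and P3H2 (a collagen-modifying hydroxylase 6 genes away from TPRG1, difference -1.50, adjusted p = 0.0264) fell. PRR15, 8 genes away from CPVL, rose by 1.54 at that dose (adjusted p = 0.0220). CLCA1, the family member next to CLCA2, read 13.1 to 16.5 on all arrays. KLRF1, which encodes the natural killer cell receptor for CLEC2B and lies near it, did not pass at either dose.

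Genes with related roles were followed as lists, against the clone. Their counts at 1 μM and 10 μM come from fits of 6 and 8 arrays and are not a like comparison. Of 22 measured basal epithelial genes, 2 fell at 1 μM and 6 at 10 μM with none higher, where 0.925% and 3.93% of all genes were called lower, and their median differences were -0.59 and -0.81. DSC3, a desmosomal cadherin, ended below both MCF-10F arrays. DSC3 signals were 1906 and 1745 in the untreated clone, 139.5 and 95.6 at 1 μM ATRA, 48.6 and 47.3 at 10 μM ATRA, and 474 and 623 in MCF-10F. DSC3 fell at both doses, with log2 differences from the clone of -3.98 at 1 μM (SE 0.24, adjusted p = 0.0129) and -5.25 at 10 μM (SE 0.22, adjusted p = 0.0006). FAT2 is a protocadherin. FAT2 fell at both doses, with log2 differences from the clone of -2.46 at 1 μM (SE 0.26, adjusted p = 0.0245) and -2.63 at 10 μM (SE 0.26, adjusted p = 0.0053). At 10 μM the others were KRT14, ITGA6, TRIM29 and VSNL1.

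Among 12 measured BLNK signalling partners, 1 fell at 1 μM and 2 fell and 1 rose at 10 μM. VAV3 is a guanine nucleotide exchange factor. VAV3 fell at both doses, with log2 differences from the clone of -4.06 at 1 μM (SE 0.50, adjusted p = 0.0326) and -4.31 at 10 μM (SE 0.48, adjusted p = 0.0073). VAV3 signals were 304 and 800.3 in the untreated clone, 25.0 and 35.1 at 1 μM ATRA, 30.7 and 20.2 at 10 μM ATRA, and 89.8 and 151 in MCF-10F. At 10 μM, PLCG1 (difference -0.68, adjusted p = 0.0462) and PLCG2 (0.79, adjusted p = 0.0471) lay just past the threshold, and at 1 μM their differences were -0.65 and 0.98 (adjusted p = 0.117 and 0.0600). Both 10 μM calls were lost without either array of that dose (adjusted p 0.145 to 0.289) and under most other alternatives. Of 7 calcium-activated chloride channel genes, ANO1, a channel subunit, rose at both doses (differences 4.20, adjusted p = 0.0180, and 3.94, adjusted p = 0.0035), opposite to CLCA2, and ANO6 fell at 10 μM (difference -0.99). ANO1 signals were 26.6 and 11.7 in the untreated clone, 318 and 332 at 1 μM ATRA, 245 and 302 at 10 μM ATRA, and 239.7 and 245 in MCF-10F.

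Of 19 measured p53 target genes, a class to which CLCA2 is known to belong, none was called lower at either dose. At 1 μM, 1 rose (TIGAR, a fructose bisphosphatase, by 3.99, adjusted p = 0.0281), and at 10 μM TIGAR (3.93) and TP53I3 (1.74) rose. The median difference of the p53 list was nevertheless negative, -0.41 at 1 μM and -0.27 at 10 μM, against -0.07 and -0.01 over all genes. Of 10 measured fatty acid binding and bile acid genes, 5 CLEC2 family genes and receptors, 10 lysosomal carboxypeptidases and cathepsins, and the 1 measured proteolipid relative of GPM6A, 0 passed in limma against the clone at either dose. Of 10 measured retinoid response genes, a check on the treatment, 2 rose at 1 μM and 4 at 10 μM, where 0.991% and 4.01% of all genes were called higher. CYP26B1, which breaks down ATRA, rose by 2.86 at the lower dose (adjusted p = 0.0160), and NR2F1 by 2.48 (adjusted p = 0.0393; lost, at 0.0568, with the clone's replicate 1 left out). CYP26A1 and TGM2 rose at 10 μM. These background shares apply to the counts of the other lists too.

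Marker genes were summed for the cell types in which the members are best known. The summed signal of 6 B cell markers was 244 to 313 in the untreated clone, 236 to 244 at 1 μM, 235 to 253 at 10 μM and 228 to 243.5 in MCF-10F. For 6 natural killer cell markers the sums were 249 to 288 over all arrays, for 6 lens fibre markers 145 to 183, and for 7 enterocyte markers 192 to 246. The sums of 8 neuron markers were 1456 to 1767 in the clone, 2248 to 2469 at 1 μM, 2258 to 2307 at 10 μM and 1908 to 5655 in MCF-10F. Those of 7 chondrocyte markers were 1784 to 2736 on the clone and ATRA arrays and 1435 to 1587 in MCF-10F. Those of 11 macrophage markers were 400.1 to 511 in the clone, 717 to 824 at 1 μM, 915 to 968 at 10 μM and 328 to 690.4 in MCF-10F, with the group means of PTPRC and TYROBP under 16 throughout. The macrophage sums moved mainly with CD14, whose signals were 149 and 108 in the clone, 524 and 436 at 1 μM, 572 and 661 at 10 μM, and 49.1 and 402 in MCF-10F. CD14 did not pass against the clone (adjusted p = 0.335 and 0.171), and the median difference of the macrophage list was -0.06 at 1 μM and 0.00 at 10 μM. None of these lists had a gene called at 1 μM. At 10 μM, 1 B cell marker was called lower (CR2, difference -0.68, adjusted p = 0.0356) and 1 macrophage marker higher. The 10 fibroblast markers summed to 864 to 1065 in the clone, 516.5 to 569 at 1 μM, 476 to 504 at 10 μM and 4664 to 7364 in MCF-10F, and 4 of them were lower in the clone than in MCF-10F. Against the clone, 0 fibroblast markers were called at 1 μM, and 1 higher and 2 lower at 10 μM. The part of these differences in the members' levels was not tested. The 8 measured basal and pan-epithelial markers and 5 luminal markers each had at most 1 gene called at either dose. The basal and pan-epithelial sums were 36730 to 37610 in the clone, 28920 to 30680 at 1 μM, 26190 to 26760 at 10 μM and 34540 to 50670 in MCF-10F. The luminal sums were 2403 to 4671 in the clone, 2960 to 3330 at 1 μM, 3223 to 3882 at 10 μM and 2246 to 2513 in MCF-10F.

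Over the 8 arrays the members fell into a gradation. The correlation of log2 signals was 0.995 between CLCA2 and BLNK, 0.975 between CLCA2 and TPRG1, and 0.893 between CLCA2 and MIR205HG. It was 0.402 between CLCA2 and FABP6 and 0.295 between CLCA2 and CPVL, whereas FABP6 and CPVL correlated at 0.954 with each other. All 8 arrays are 4 pairs of replicates, so these values describe mainly the pattern of the group means. Among 3145 genes that varied, those most like CLCA2 were BLNK, NPTN-IT1, AKAP17A, RAB38 and C1orf21 (r of 0.991 to 0.995), of which RAB38, a small GTPase, had differences from the clone of -3.83 at 1 μM and -4.20 at 10 μM. Those most like MIR205HG were PPP1R13L, ZNF227, CLTRN, THBS2 and FSIP1 (r of 0.986 to 0.994).

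The members can also be set beside the other genes that were raised as far in the clone. There were 34 non-members with a difference from MCF-10F at least that of BLNK. Of these, 10 (29.4%) fell at 1 μM (fit of 6 arrays) and 23 (67.6%) at 10 μM (fit of 8 arrays). All 34 had negative differences at both doses, with medians of -2.43 and -2.51. At 10 μM, 12 of the 34 stayed at least 1 log2 unit above MCF-10F and 3 lay at least 1 below it. They were chosen as high on the same clone arrays as the members, so the direction of their differences is not independent of that choice either. Most members are also in the study's list of genes that fell at 1 μM, which played no part in choosing the 34. The members and the 34 were therefore not picked alike, and their shares called are not a like comparison.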

How the data were processed

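Transcript levels of 8 samples came from Affymetrix U133 Plus 2.0 arrays. The deposited values are probe set intensities on a linear scale, which the authors summarised and normalized before deposit. The Methods mention both MAS 5.0 scaled globally and Iterative Plier (GeneSpring), and the sources used here do not give which of them made these values, so the background correction is unknown. Scanner files were not analysed here.

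No further scaling or pseudocount was applied, and tests ran on log2 signals. Of 54675 probe sets, 62 controls were left out. Of the others, 41091 name 1 gene, 1801 several and 11721 none in the annotation used. Groups were compared with limma 3.58.1 in R 4.3.3 (lmFit, eBayes), 1 mean per group, with Benjamini-Hochberg adjustment over 54613 probe sets and a threshold of 0.05. Comparisons of 1 μM ATRA used the 6 arrays without 10 μM, those of 10 μM all 8 arrays, and those between doses the 4 dose arrays. The moderated variances had 2.91, 3.18 and 4.52 prior and 3, 4 and 2 residual degrees of freedom. The code was tested on simulated data. With 2 arrays per group, their number limits the precision.

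Members and lists were chosen with earlier results of these data known. Other genes named are up to 2 per list with the smallest p at 1 μM, the flanking genes, and the 5 most like CLCA2 and MIR205HG, and any further one is a called list member or is said to be chosen later. Alternatives were another threshold (a fold of 2 with an unadjusted p under 0.05), other sets of arrays, quantile normalization, a floor of 16, dropping dim probe sets (33%), limma's trend with a robust prior, the replicate number as a block, averaging the probe sets of each gene, and each array left out. Figures used matplotlib 3.10.9 and tables pandas 2.3.3. List genes with no probe set of their own in the annotation were not analysed here.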

Additional observations from a re-analysis of the deposited data

How the results depend on the processing

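With 2 arrays per group the calls depend on few values. The count of members lower at 1 μM ATRA than in the clone, 8 of 10, was 1 with signals under 16 set to 16 (MIR205HG) and 0 to 10 with 1 array left out, 0 coming from either 1 μM array. At 10 μM, 10 of 10, it was 5 to 10. Against MCF-10F at 1 μM, 1 member was called, and 6 at a fold of 2 and unadjusted p (3.83% of all genes), 2 in the 4 arrays alone, 3 with all 8 arrays, 0 with the floor of 16, 2 with the trend and robust prior, and 0 to 2 with 1 array left out. At 10 μM, 3 were called, and 1 with the floor of 16 and 0 to 4 with 1 array left out. Between doses 0 members were called under each setting. The median of clone minus MCF-10F, 3.88, was 2.92 with the probe sets of each gene averaged and 3.66 to 4.02 with 1 array left out.

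Signs turned only for differences that did not pass. Without MCF-10F replicate 2, BFSP1 against MCF-10F was at -0.0093 (1 μM) and -0.0169 (10 μM) and CLEC2B at 0.0673 (1 μM), while without MCF-10F replicate 1 they were at 0.686, 0.679 and -1.61. Between doses, CLCA2 was at -0.164 as the mean over its probe sets, BFSP1 between -0.0861 and 0.0709 and SCRG1 between -0.0374 and 0.224 with 1 array left out. The cause was not tested.

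FABP6 passed at 1 μM against the clone with all 8 arrays (adjusted p = 0.0166), quantile normalization (0.0495) or without dim probe sets (0.0473), and GPM6A and SCRG1 did not in the 4 arrays alone (0.0582 and 0.0532). Counts of all genes called at 1 μM against the clone moved between 0 and 1983 higher (196) and between 0 and 1023 lower (183), and at 10 μM between 24 and 2465 higher (792) and between 27 and 1582 lower (777).

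The labels pair no samples by replicate number. Deviations of same-numbered arrays correlated between -0.056 and 0.351 over the pairs of groups, and the actin 3'/5' ratio was higher on replicate 2 in all 4 groups, whose part in the calls was not tested. With the replicate block, 6 members were called lower at 1 μM and 10 at 10 μM, GPM6A (adjusted p = 0.0661) and CLEC2B (0.0502) being lost, 1 and 3 differed from MCF-10F, and 0 between doses, where 4 genes were called higher and 8 lower.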
